A study of Mus musculus with 12 samples.

Results

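Cycling SOX2+ tumour cells were set against SOX2+ tumour cells that were not cycling, by their open chromatin, in mouse medulloblastoma of the SHH subgroup. The members were 4 of the 12 ATAC-seq libraries of the study, chosen by title alone. They were the 2 SOX2+/MKI67+ libraries, called cycling here, and the 2 SOX2+/MKI67- libraries, called non-cycling. All cells of the study were primary brain tumour cells of untreated Ptch1+/- mice at endpoint, and the age of the mice is not given in the sources used here. SOX2+ cells were sorted by an eGFP signal for SOX2, and the 4 members were further divided by an RFP signal for MKI67. The other 8 libraries, 4 of SOX2+ and 4 of SOX2- cells from a sort on eGFP alone, were used only as a reference. ATAC-seq marks accessible DNA by the places where a transposase can insert adapters. A list of peaks was deposited for each library, and the analysis starts from those lists. The promoters that drive the reporters and the origin of replicates from separate tumours are not given in the sources used here, so a p-value here speaks of the spread among these libraries, part or all of which may be technical.

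SHH medulloblastoma is a cerebellar tumour of the granule neuron progenitor lineage. In that lineage the receptor Ptch1 holds back the transducer Smo until hedgehog ligand binds, and Gli transcription factors then switch on target genes. Atoh1 is the basic helix-loop-helix factor that specifies granule neuron progenitors, and Sox2 is a transcription factor of neural stem cells. MKI67 is a nuclear protein present in cycling cells and lost after they leave the cycle. Promoters of mitotic genes often carry CCAAT boxes, bound by NF-Y, and the cell cycle genes homology region TTTGAA, bound by the MuvB complexes.

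The promoter sequences at which the results turn are the 250 bases before the transcription start of 5 genes, from RefSeq on GRCm38.p6, which shares its coordinates with mm10. They are written 5′ to 3′ on the strand of the gene, and capitals mark CCAAT and TTTGAA on either strand (ATTGG and TTCAAA are the reverse). The window of Mki67 (chr7:135716380-135716629, minus strand) carried a peak in all 4 lists, while those of Plk1 (chr7:122159185-122159434, plus strand), Atoh1 (chr6:64728875-64729124, plus strand), Smo (chr6:29735247-29735496, plus strand) and Lfng (chr5:140607091-140607340, plus strand) carried one in both cycling lists and in neither non-cycling list.
Mki67: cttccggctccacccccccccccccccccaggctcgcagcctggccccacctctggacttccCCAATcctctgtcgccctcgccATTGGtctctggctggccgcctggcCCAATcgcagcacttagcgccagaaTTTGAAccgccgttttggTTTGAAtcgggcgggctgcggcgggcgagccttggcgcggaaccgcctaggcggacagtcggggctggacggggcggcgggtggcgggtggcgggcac
Plk1: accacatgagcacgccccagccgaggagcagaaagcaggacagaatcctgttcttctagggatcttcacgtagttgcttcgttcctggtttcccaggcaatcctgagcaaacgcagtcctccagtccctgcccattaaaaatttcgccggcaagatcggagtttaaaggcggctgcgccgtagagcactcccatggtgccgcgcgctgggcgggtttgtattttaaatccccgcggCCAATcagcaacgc
Atoh1: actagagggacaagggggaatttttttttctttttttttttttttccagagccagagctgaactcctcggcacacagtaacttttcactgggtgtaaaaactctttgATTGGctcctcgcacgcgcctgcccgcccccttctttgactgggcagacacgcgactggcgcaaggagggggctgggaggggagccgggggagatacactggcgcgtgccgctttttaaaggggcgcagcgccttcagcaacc
Smo: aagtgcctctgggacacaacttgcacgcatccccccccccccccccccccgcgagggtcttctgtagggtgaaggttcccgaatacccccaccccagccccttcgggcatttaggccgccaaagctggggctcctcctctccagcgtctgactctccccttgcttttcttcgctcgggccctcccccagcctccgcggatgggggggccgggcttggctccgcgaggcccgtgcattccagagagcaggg
Lfng: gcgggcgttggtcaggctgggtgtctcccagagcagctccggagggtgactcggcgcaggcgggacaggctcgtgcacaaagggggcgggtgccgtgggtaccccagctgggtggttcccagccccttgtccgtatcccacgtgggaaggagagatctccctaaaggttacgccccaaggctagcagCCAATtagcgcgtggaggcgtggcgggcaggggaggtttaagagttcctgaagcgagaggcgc
Mki67 held 3 CCAAT boxes, beginning 188, 166 and 141 bases before the start, and 2 TTTGAA elements at 116 and 98 bases. Plk1 and Lfng held a CCAAT box at 14 and 63 bases and Atoh1 one at 143 bases, while the Smo window held neither motif. CCAAT was present in 34.7% of the 26794 promoter windows in the RefSeq table and TTTGAA in 15.9%. Among the 256 windows that overlapped a region listed in both cycling libraries and neither non-cycling one, the shares were 27.7% and 12.1%. The Gli site TGGGTGGTC, searched on both strands of the same windows, was in 0 of these 256 and in 57 (0.213%) of all windows. These matches describe letters and not binding.

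The non-cycling lists held 19229 and 17615 peaks and the cycling lists 18738 and 24694. Cycling replicate 2 stood apart by its length, so the main results were also taken from lists cut to the same number of top peaks by -log10 q, 17615, the length of the shortest. Peak number was 21716 ± 4212 (SD, n = 2) in cycling and 18422 ± 1141 in non-cycling libraries, and the groups overlapped (exact permutation p = 0.667, two-sided; no comparison of 2 with 2 can go below 0.333). Peaks within 1 kb of the end of a gene made up 48.0% and 50.8% of the non-cycling lists and 49.2% and 42.2% of the cycling lists, and 50.1% to 51.1% of all 4 at equal length. Pairs of lists from the same group shared little more than pairs across groups. The Jaccard index, shared over joint base pairs, averaged 0.564 within and 0.539 between groups (exact one-sided p = 0.333, the smallest the 3 splits allow), and 0.587 and 0.564 at equal length. Among the reference libraries, SOX2- replicate 1 had the fewest peaks, 7009, and SOX2+ replicate 3 was the only SOX2+ library above 0 in the log2 ratio compared below.

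At Mki67 itself, the promoter region (chr7:135716217-135716832) was listed in all 12 libraries, so its presence did not separate the fractions. Peaks were ranked within each list, with 1 for the highest -log10 q, and this region stood at 6846 and 7885 in the non-cycling and at 3025 and 2371 in the cycling lists. Both cycling ranks were better than either non-cycling one. Peaks assigned to Mki67, by a midpoint inside the gene or within 100 kb of it as the nearest protein-coding gene, numbered 2 and 1 in non-cycling and 2 and 5 in cycling lists. The log2 difference of peaks per gene, with 1 added, was 0.64 ± 0.32 (SE) and did not pass (limma adjusted p = 1).

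Atoh1 carried regions that the non-cycling lists lacked. Its promoter region (chr6:64728673-64729195), which also covers the start of Gm35851, was listed at ranks 11838 and 13935 in the cycling libraries, in neither non-cycling library, in 4 SOX2- and in 2 SOX2+ reference libraries. A second region 3.40 kb from the nearest gene end (chr6:64734395-64734903) ranked 6151 and 11833 in the cycling lists and was in neither non-cycling list, in 4 SOX2- and in 3 SOX2+ libraries. Atoh1 had 1 and 0 peaks in non-cycling and 4 and 2 in cycling lists, so the groups did not overlap, yet the log2 difference of 1.30 ± 0.62 (SE) did not pass (limma adjusted p = 1). Sox2 had 3 and 6 peaks against 3 and 5 (log2 difference -0.24 ± 0.37 SE) and Ptch1 1 and 2 against 2 and 4 (0.47 ± 0.35 SE), both with adjusted p = 1 in limma. For both genes the counts overlapped or touched between the fractions. The Sox2 promoter region (chr3:34649544-34650204) was in all 4 lists, at ranks 4209 and 2811 in non-cycling and 3802 and 6971 in cycling cells.

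Merging peaks of the 4 lists that overlapped by at least 1 bp gave 29825 regions, of which 12431 (41.7%) were in all 4. Cycling-only regions, listed in both cycling and neither non-cycling library, numbered 1772 (5.94%). Non-cycling-only regions, the converse, numbered 435 (1.46%). With lists of equal length the counts were 896 (3.53%) and 821 (3.23%) of 25401 regions, so most of the excess of cycling-only regions was absent at equal length. Of the regions found at full length, 788 of 1772 (44.5%) and 367 of 435 (84.4%) were again exclusive to the same group when lists were cut. Cutting can only remove peaks, so this counts regions whose own peaks stayed within the cut in both libraries. Leaving out 1 library at a time gave 2553 to 6371 cycling-only and 555 to 2214 non-cycling-only regions. As the sets were picked by their listing, these counts have no test.

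**Figure D1:**
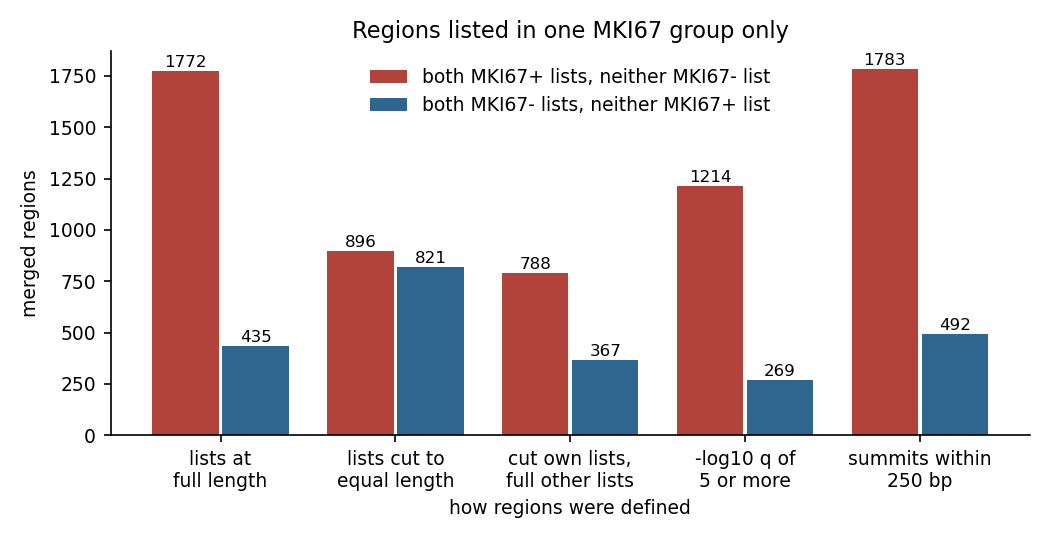
Merged regions (vertical axis, count) listed in both MKI67+ and neither MKI67- library (red) or the converse (blue), under 5 definitions on the horizontal axis. The gap between 1772 and 435 at full length shrinks to 896 against 821 at equal length.

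Both exclusive sets lay away from gene ends. A gene end within 1 kb was found for 16.6% of cycling-only and 12.6% of non-cycling-only regions. It was found for 36.8% of all merged regions and 61.8% of the regions in all 4 lists. Cycling-only regions were inside genes in 40.8% and between genes in 42.6% of cases, and non-cycling-only regions in 44.6% and 42.8%. Their median widths were 383 and 324 bp, against 417 bp over all merged regions and 622 bp for regions in all 4 lists. A region in all 4 lists joins peaks of more lists, which can widen it. Promoter windows, from 250 bases before to 50 after a start, were overlapped by 233 cycling-only and 35 non-cycling-only regions.

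The SOX2 sort, which took no part in choosing the regions, listed the sets differently. SOX2- replicates 1 to 4 listed 12.4%, 77.7%, 36.7% and 67.9% of the cycling-only regions, and SOX2+ replicates 1 to 4 listed 19.4%, 2.60%, 54.1% and 53.0%. These percents overlapped between the groups (48.7 ± 29.8 and 32.3 ± 25.5, SD, n = 4; exact permutation p = 0.429, two-sided). Of the non-cycling-only regions, the SOX2- replicates listed 0.230%, 10.3%, 1.84% and 7.82% and the SOX2+ replicates 31.3%, 3.22%, 29.9% and 66.0% (5.06 ± 4.80 and 32.6 ± 25.7, n = 4; exact p = 0.0857). The lowest SOX2+ percent was again that of replicate 2, which lies within the range of the SOX2- libraries. Within each group the percent of all 29825 regions listed rose with the length of the list, from 22.5% to 59.8% in SOX2- and from 30.8% to 73.3% in SOX2+ libraries, so the ratio of the sets within each library was compared next.

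The log2 ratio of the cycling-only to the non-cycling-only percent was 5.76, 2.91, 4.32 and 3.12 in SOX2- replicates 1 to 4. In SOX2+ replicates 1 to 4 it was -0.69, -0.31, 0.86 and -0.32. Among SOX2- libraries the ratio fell as lists grew, with 5.76 at 7009 peaks, 4.32 at 12660, 3.12 at 21682 and 2.91 at 26206. It was therefore not free of list length there, while SOX2+ libraries showed no such order. The value 5.76 rests on 1 listed non-cycling-only region. The groups did not overlap, and all SOX2- libraries favoured cycling-only regions. The difference, SOX2+ minus SOX2-, was -4.14 (means -0.12 ± 0.67 and 4.03 ± 1.31, SD, n = 4; exact permutation p = 0.0286, two-sided, the smallest that 4 against 4 allows). It was -3.25 with regions from lists of equal length and -4.65 for regions more than 1 kb from a gene end, each with an exact p = 0.0286. Without SOX2+ replicate 3, the one SOX2+ library above 0, it was -4.46 (exact permutation p = 0.0571, the smallest that 3 against 4 allows). Choosing regions without 1 of the 4 MKI67 libraries gave -2.25 to -3.43, with groups that did not overlap in any of the 4 cases (exact p = 0.0286 each).

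With the 8 reference lists also cut to 7009 peaks, the shortest of all, each set separated the groups on its own. The equal-length cycling-only regions were then listed at 23.6 ± 5.69% in SOX2- and 2.68 ± 3.90% in SOX2+ libraries (SD, n = 4; exact permutation p = 0.0286). SOX2+ replicate 3 stood at 8.48% and the other SOX2+ replicates at 0.670%, 1.34% and 0.223%. The equal-length non-cycling-only regions were at 0.426 ± 0.290% in SOX2- and 1.71 ± 0.554% in SOX2+ libraries (exact p = 0.0286). That is 1 to 6 of the 821 regions in SOX2- and 8 to 19 in SOX2+ libraries. All merged regions separated the groups as well, at 26.4 ± 0.212% and 27.5 ± 0.0984% (exact permutation p = 0.0286). Their difference was 1.11 points, beside 1.28 for the non-cycling-only and -20.9 for the cycling-only set.

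**Figure D2:**
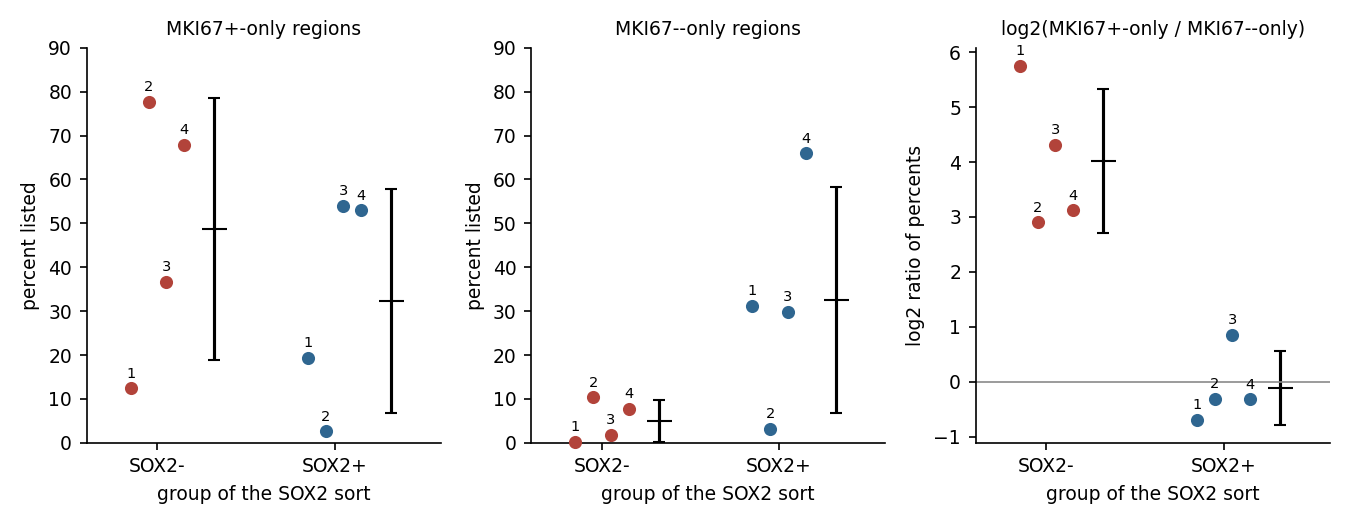
Percent of cycling-only (MKI67+-only, left) and non-cycling-only (MKI67--only, middle) regions listed in each library of the SOX2 sort, and the log2 ratio of the percents (right); points carry the replicate number, bars are the mean ± SD of 4 libraries. The ratios of the SOX2- libraries, 2.91 to 5.76, all lie above those of the SOX2+ libraries, -0.69 to 0.86.

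The exclusive sets were also counted by region. Of the 435 non-cycling-only regions, 367 were in 0 SOX2- libraries, 0 were in all 4, and 322 were in more SOX2+ than SOX2- libraries against 13 the other way. Of the 1772 cycling-only regions, 291 were in 0 SOX2- libraries, 179 in all 4, and 953 were in more SOX2- than SOX2+ libraries against 391 the other way. Of all 29825 regions, 10219 were in 0 SOX2- libraries and 6327 in all 4. These regions were merged from lists of SOX2+ cells alone, and 11967 were in more SOX2+ libraries against 5016 in more SOX2- libraries. At least 3 SOX2- libraries listed 35.6% of the cycling-only regions, 0.46% of the non-cycling-only regions and 35.6% of all regions. None of the 8 reference lists held 94 of the cycling-only and 78 of the non-cycling-only regions, which are among those in 0 SOX2- libraries.

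The converse choice, made on the SOX2 sort alone, was read in the MKI67 libraries. Regions in at least 3 SOX2- and 0 SOX2+ libraries numbered 687. The non-cycling lists held 1.75% and 0.582% of them and the cycling lists 30.1% and 36.7%. Both cycling lists were above both non-cycling ones, also at equal length (1.31% and 0.582% against 24.6% and 13.5%; exact p = 0.333, the smallest possible). Regions in at least 3 SOX2+ and 0 SOX2- libraries numbered 1817 and were listed at 87.9% and 87.1% in non-cycling and at 70.4% and 91.8% in cycling libraries, which overlap. At equal length the percents were 85.6 and 87.1 against 67.0 and 77.4, with no overlap (exact p = 0.333). Of the 5444 regions found in all 8 reference libraries, each of the 4 lists held at least 99.5%, at either length.

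**Figure D3:**
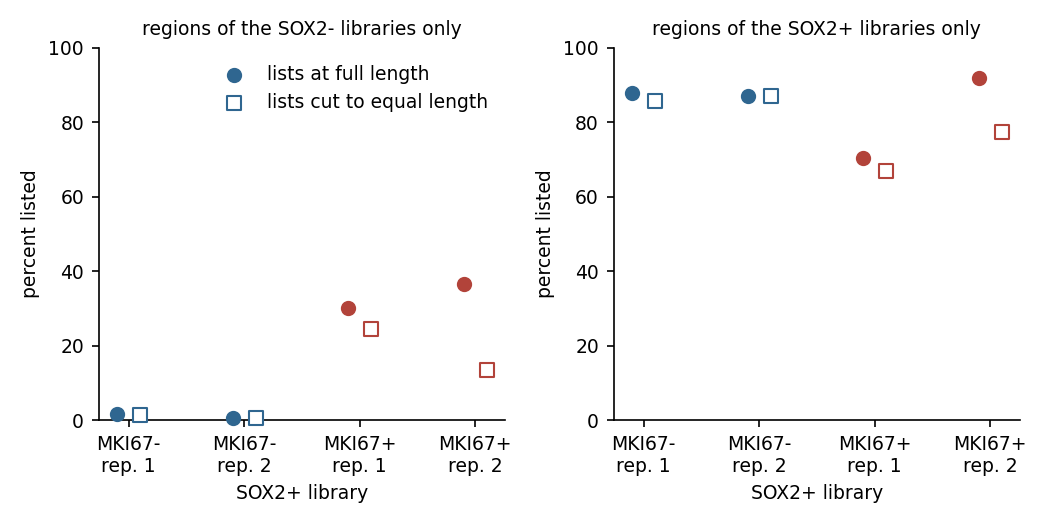
Percent of regions exclusive to the SOX2- libraries (left, 687 regions) or to the SOX2+ libraries (right, 1817 regions) that each of the 4 MKI67-sorted libraries lists, at full (filled circles) and equal length (open squares). The non-cycling libraries (blue) list at most 1.75% of the SOX2- set, and the cycling libraries (red) at least 13.5%.

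Many genes of the granule neuron progenitor list had a cycling-only region, 12 regions in all of the 1772. At full length 10 of its 20 members had at least 1 such region and 0 had a non-cycling-only region, against 6.33% and 1.68% of the 21627 protein-coding genes. At equal length it was 7 members and 1 (Boc), against 3.37% and 3.1% of genes. Besides Atoh1 these were Zic1, Zic2 and Zic5 (zinc-finger factors of cerebellar progenitors), Neurod1 (a bHLH factor of differentiating neurons), Tlx3 (a homeobox factor) and Boc at both lengths, with Cxcr4, Lmx1a and Sfrp1 at full length. By peaks per gene, 7 of the 20 members had more peaks in both cycling lists than in either non-cycling one and 0 had fewer, where the shares over all 14182 genes tested were 7.97% and 1.56%. The median log2 difference of the list was 0.39 against -0.02 for all genes, and 0 for both at equal length, where 5 members still had more peaks and 0 fewer (4.05% and 3.98% of all genes). The shares of protein-coding genes include genes without any region. By region, 17.1% of the 70 regions of list members were cycling-only and 0% non-cycling-only, against 5.94% and 1.46% of all merged regions. The shares at equal length were 15.1% and 1.89% of 53 regions, against 3.53% and 3.23%.

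The ZIC genes, which encode zinc-finger factors, are described next. Near Zic2 a region 1.10 kb from the nearest gene end (chr14:122474009-122474559) ranked 2827 and 9815 in the cycling lists, was in neither non-cycling list, and was in 4 SOX2- and 4 SOX2+ libraries. Zic2 had 0 and 0 peaks in non-cycling and 1 and 2 in cycling lists (log2 difference 1.20 ± 0.31 SE, limma adjusted p = 0.704). The promoter region of Zic5 (chr14:122464925-122465626) ranked 13087 and 11012 in the cycling lists and was in 4 SOX2- and 2 SOX2+ libraries. Peaks per gene at Zic5 were 0 and 0 against 2 and 3. Near Zic1, whose promoter region was in all 4 lists (ranks 9139 and 12044 in non-cycling and 13417 and 9083 in cycling cells), a region 6.99 kb from a gene end (chr9:91350890-91351250) ranked 5573 and 8568 and was listed in 3 SOX2- and 2 SOX2+ libraries. The Neurod1 promoter region (chr2:79456606-79456897) ranked 7203 and 16666 and was in 3 SOX2- libraries and 1 SOX2+ library.

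Of the 19 genes in the list for neuronal differentiation, 8 had a cycling-only region and 0 a non-cycling-only one, against 6.33% and 1.68% of protein-coding genes. At equal length it was 3 (Gap43, Rbfox3 and Stmn2) and 0, against 3.37% and 3.1%. By region, 21.3% of the 61 regions of list members were cycling-only and 0% non-cycling-only, against 5.94% and 1.46% of all merged regions. The shares at equal length were 5.88% and 0% of 51 regions, against 3.53% and 3.23%. Gap43, which encodes a growth-cone protein, held 4 cycling-only regions at full length in a span of 92.1 kb. In cycling replicate 2 these ranked 8137, 20502, 20859 and 21254, so only the first was within the equal-length cut of 17615. Gap43 had 0 and 2 peaks in non-cycling against 5 and 7 in cycling lists. At equal length its peaks were 0 and 2 against 5 and 4. The groups did not overlap, and no member of the list passed the limma test.

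In the hedgehog pathway, 7 of 15 genes had a cycling-only region at full length, Boc, Cdon, Gli2, Ptch1, Smo and Sufu among them, and 1, Gli2, had a non-cycling-only region as well, where the shares of protein-coding genes were 6.33% and 1.68%. At equal length it was 6 genes and 2, Boc and Gli2, where the shares were 3.37% and 3.1%. By region, 18.8% of the 48 regions of list members were cycling-only and 2.08% non-cycling-only, against 5.94% and 1.46% of all merged regions. The shares at equal length were 14.6% and 7.32% of 41 regions, against 3.53% and 3.23%. By peaks per gene, 5 of the 15 had more peaks in both cycling lists at full length and 1 of 15 at equal length, where 7.97% and 4.05% of all genes did. The promoter region of Smo (chr6:29735377-29735919) ranked 7252 and 13626 in the cycling lists, and was in 4 SOX2- and 3 SOX2+ libraries. Inside Ptch1 a region 7.19 kb from a gene end (chr13:63566072-63566475) was cycling-only, while one 5.41 kb from a gene end (chr13:63567795-63568302) was in all 4 lists, at ranks 6849 and 7301 in non-cycling and 4552 and 7698 in cycling cells. Boc and Cdon encode co-receptors of hedgehog ligand and Sufu the inhibitor that binds Gli proteins. The non-cycling-only region of Gli2 lay inside the gene (chr1:118895192-118895658) at ranks 12517 and 9928, and was in 0 SOX2- libraries and 1 SOX2+ library. The median log2 difference of the pathway was 0.05, and 0 at equal length. Of 4 hedgehog promoter regions in all 4 equal-length lists, 0 ranked better in both cycling lists and 1, Gas1, in both non-cycling lists. Over all such promoter regions these shares were 21.1% and 13.7%.

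Notch pathway members with cycling-only regions were Dll1, a ligand, and the fringe glycosyltransferases Lfng and Rfng, 3 of 20 genes, with 0 on the other side. The shares of protein-coding genes were 6.33% and 1.68%. At equal length it was 2 (Lfng and Rfng) and 0, against 3.37% and 3.1%. By region, 10.9% of the 46 regions of list members were cycling-only and 0% non-cycling-only, against 5.94% and 1.46% of all merged regions. The shares at equal length were 5.41% and 0% of 37 regions, against 3.53% and 3.23%. Lfng had 0 and 0 peaks in non-cycling against 3 and 2 in cycling lists, and 0 and 0 against 3 and 1 at equal length. Its promoter region (chr5:140607160-140607606) ranked 10353 and 16382, and a region 5.49 kb away (chr5:140601728-140601974) ranked 9565 and 18236. The promoter region was in 3 SOX2- and 2 SOX2+ libraries, and the distal one in 3 SOX2- and 0 SOX2+ libraries. Of 8 Notch promoter regions in all 4 equal-length lists, 0 ranked better in both cycling lists. In both non-cycling lists 2 ranked better, Hes5 and Hey2. Over all such promoter regions these shares were 21.1% and 13.7%. Sox9, a factor of glial progenitors, had 0 and 0 peaks against 3 and 3, with cycling-only regions at the gene end (chr11:112781882-112782374) and 30.7 kb away (chr11:112818195-112818704). At equal length the Sox9 peaks were 0 and 0 against 3 and 1, and the region 30.7 kb away ranked 20359 in cycling replicate 2. Slc1a3, the glutamate transporter of radial glia and astrocytes, had 2 and 3 against 5 and 8 peaks, and its cycling-only regions were in 0 SOX2- and 2 SOX2+ libraries each. Cycling-only regions thus included some at glial genes.

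The remaining lists are given by counts, read against the same 6.33% and 1.68% of protein-coding genes. Those shares include genes without any region, so cycling-only shares of the regions of list members are given as well. Cycling-only against non-cycling-only, at full length, these were 4 and 1 of 16 astrocyte, 3 and 1 of 20 stem and progenitor, 2 and 1 of 15 oligodendrocyte, and 3 and 2 of 22 BMP and TGF-beta genes. They were 3 and 0 of 16 immediate early genes, 2 and 0 of 20 Wnt genes, 2 and 0 of 11 G1 cyclin and kinase genes, 3 and 0 of 19 cell cycle inhibitor genes, and 2 and 0 of 20 housekeeping genes. Of all merged regions, 5.94% were cycling-only. By region the share was 6.94% at astrocyte, 7.14% at stem and progenitor, 6.98% at inhibitor and 5.88% at housekeeping genes. It was 3.77% at Wnt, 3.92% at oligodendrocyte and 4.76% at BMP and TGF-beta genes. Immediate early genes had 8.89% and G1 cyclin and kinase genes 7.41%. At equal length the stem and progenitor list had 2 members (Slc1a3 and Sox9) against 3 (Id4, Sox2 and Sox3), and the BMP and TGF-beta list 2 against 3 (Bmp7, Smad1 and Tgfb2).

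**Figure D4:**
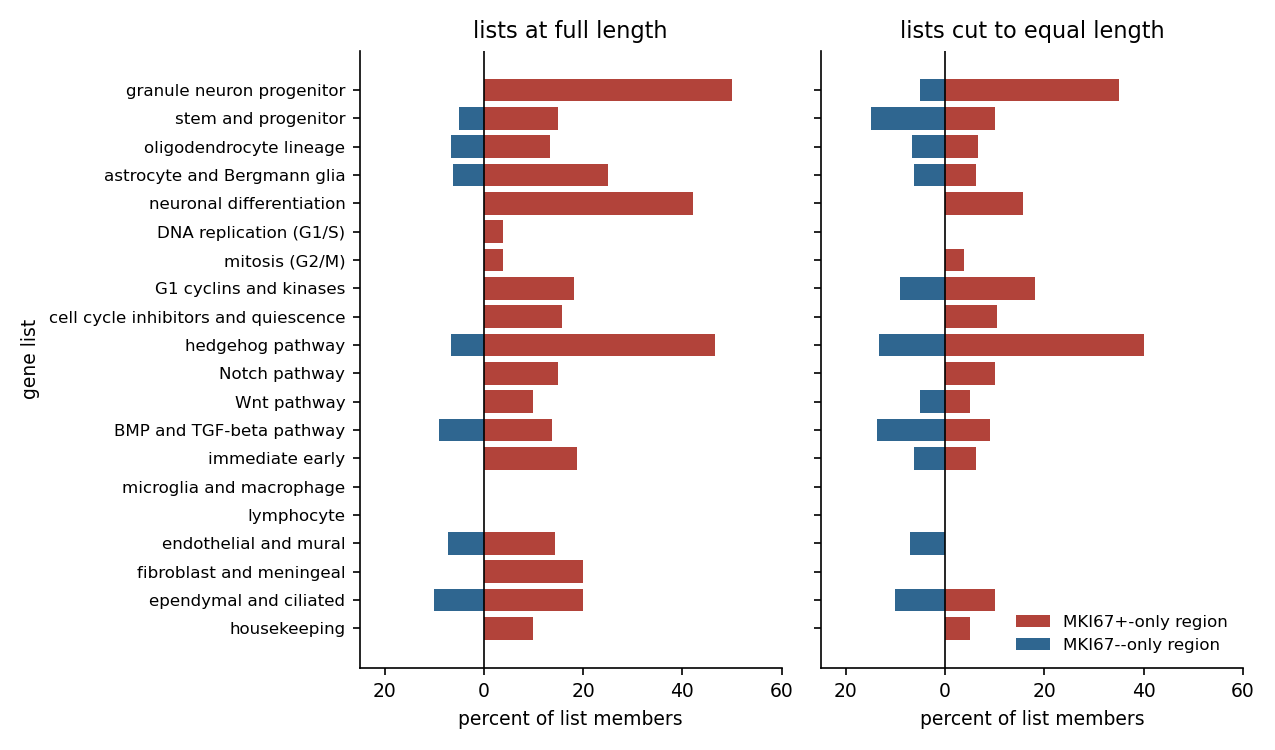
Percent of the members of each gene list (vertical axis) with at least 1 cycling-only region (red, to the right of 0) or non-cycling-only region (blue, to the left), at full length (left panel) and equal length (right panel). The granule neuron progenitor list reaches 10 of 20 members on the right at full length and 7 of 20 at equal length.

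Cell cycle genes differed little in whether their promoters were listed. In the DNA replication list, 19 and 18 of the 22 genes with a promoter window had a peak over it in the non-cycling lists and 18 and 20 in the cycling lists. In the mitosis list it was 19 and 19 of 20 against 19 and 20. All 4 lists shared 17 of the 22 and 18 of the 20, against 29.5% of the 26794 genes with a window. Of both lists, only Plk1, a mitotic kinase gene, had its window listed in both cycling and neither non-cycling library (chr7:122159178-122159590, ranks 15443 and 10335), a pattern seen in 1% of all genes with a window, and 0.142% showed the converse. By peaks per gene, the median log2 difference was 0 in both lists at either length, and 1 mitosis gene and 0 replication genes had more peaks in both cycling lists, none fewer.

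Ranks within equal-length lists varied more. Of the 6838 promoter regions in all 4 lists, 21.1% ranked better in both cycling lists than in either non-cycling one and 13.7% the other way. For mitosis genes these were 5 of 18 regions (Mki67, Nusap1, Cenpa, Top2a and Cenpf) and 2 of 18 (Cdk1 and Ttk). Nusap1, which binds spindle microtubules, ranked 6852 and 6831 in non-cycling and 1346 and 1819 in cycling lists. Top2a, the topoisomerase that untangles sister chromatids, ranked 6625 and 5156 against 3305 and 2939. Cenpa, the histone of centromeres, ranked 13527 and 6895 against 5810 and 5512. For DNA replication it was 3 of 18 regions, at the helicase subunit gene Mcm7, the sliding clamp gene Pcna and Chaf1a, and 2 of 18 the other way, Uhrf1 and Orc1. The housekeeping list had 6 of 12 regions better in cycling and 0 better in non-cycling lists, Gapdh and Tbp among them, so such a shift was also present at genes with no role in the cycle.

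**Figure D5:**
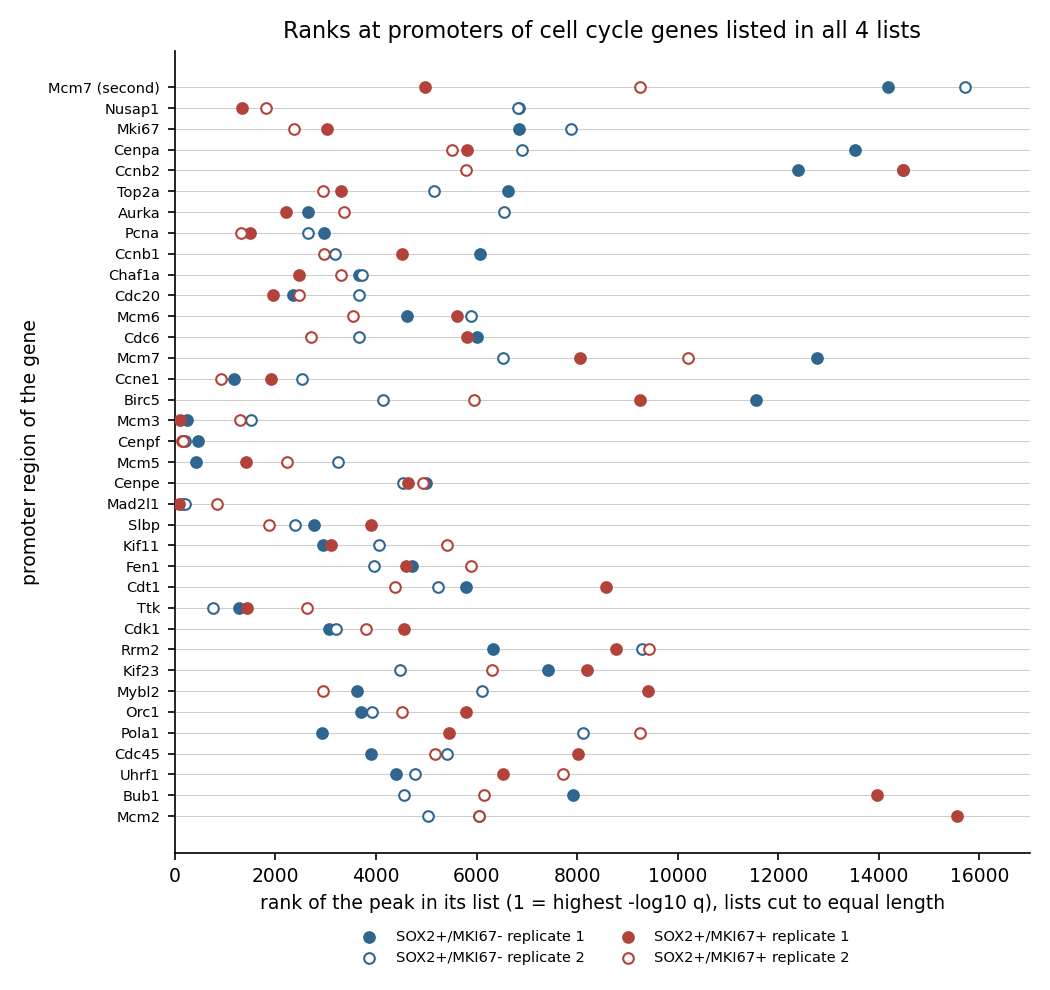
Rank of the promoter region (horizontal axis, 1 is the highest -log10 q) of each replication or mitosis gene listed in all 4 equal-length lists, ordered by the mean difference, with non-cycling (blue) and cycling (red) replicates as separate points. Mki67, Nusap1 and Top2a have both red points left of both blue points, Uhrf1 and Orc1 the reverse; Mcm7 has 2 regions.

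Stem and progenitor genes went both ways by rank. Promoter regions of Hes5, a Notch effector, and of Sox21 ranked better in both non-cycling lists, Hes5 at 7926 and 9175 against 14055 and 11494 and Sox21 at 12573 and 10257 against 12911 and 12679. Those of Vim, an intermediate filament gene, and Ptprz1 ranked better in both cycling lists, Vim at 9579 and 11399 against 8530 and 6772. Non-cycling-only regions lay 58.3 kb from Id4 (chr13:48324123-48324510, ranks 7778 and 10622), an inhibitor of bHLH factors, and 18.0 kb from Olig2 (chr16:91246411-91246875, ranks 14503 and 14231), a bHLH factor of glial progenitors. Both were in 0 SOX2- libraries and 1 SOX2+ library. A further Olig2 region (chr16:91233286-91233982), 4.96 kb from a gene end, was in all 4 lists at ranks 1455 and 1436 in non-cycling and 5395 and 4785 in cycling cells. It was in 0 SOX2- and 4 SOX2+ libraries. Id4 had 3 and 3 peaks in non-cycling and 2 and 2 in cycling lists at either length. BMP and TGF-beta genes had a median log2 difference of -0.15 (-0.21 at equal length), with 14 of 20 below 0, where 7332 of all 14182 genes were below 0. At full length 2 of the 20 had more peaks in both cycling lists and 0 fewer, and at equal length 1 had more and 5 fewer, against 4.05% and 3.98% of all genes. None passed in limma.

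By rank, the 12 leading cycling-only regions (worse rank 4657 to 7725) lay 1 at a gene end, 2 inside genes and 9 between genes, 4 of the 12 more than 100 kb from any protein-coding gene. The first was inside Pcdh9, a protocadherin gene (chr14:93350909-93351327, ranks 4657 and 2755, in 4 SOX2- and 3 SOX2+ libraries), and Edn2, Kif5c, Sucnr1 and Efna5 were the genes assigned to others. In 11 of the 12 at least 3 SOX2- libraries listed the region, the exception being the one near Arid3b. Among all cycling-only regions, and among all merged regions, that share was 35.6%. Those regions are of every rank, while the 12 were picked for their rank, and no share at like rank was taken. The 12 leading non-cycling-only regions had worse ranks from 7426 to 9454, with the first 3.27 kb from Calml3 (chr13:3807375-3807798, ranks 5174 and 7426, in 0 SOX2- and 3 SOX2+ libraries). Of these, 11 were in 0 SOX2- libraries, the exception being the one near Kcne4. Among all non-cycling-only regions the share in 0 SOX2- libraries was 84.4%, and among all merged regions 34.3%, again over every rank. All 24 were exclusive to the same group at equal length. Cycling-only regions were assigned to 1370 genes, with 5 regions at the axon guidance receptor gene Robo1 and 4 each at Arhgap26, Gap43 and Zbtb20. Robo1 spans 1020 kb, and a long gene can hold more regions. Non-cycling-only regions were assigned to 363 genes, with at most 2 per gene.

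Over all genes, the limma test of peaks per gene called few. Of 14182 genes, 17 (0.12%) were called higher and 13 (0.0917%) lower in cycling cells at an adjusted p under 0.05, and 433 and 227 had an unadjusted p under 0.05. Of these 30, 27 had the same number of peaks in every library of each group, such as Agfg2 with 1 and 1 peaks in non-cycling and 2 and 2 in cycling lists and Rpl5 with 2 and 2 against 1 and 1. Without genes of such zero spread, limma called 0 in either direction (488 and 222 at an unadjusted p under 0.05). Of the 299 tested members of the 20 gene lists, 0 were called.

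Other cell types were checked through the 26 defining markers. Of these, 7 had 0 peaks in all 4 lists, Cx3cr1, Csf1r, Aif1, Kdr, Cd3e and Gabra6 among them. Other markers of the same cell types did have peaks. Ptprc had 2 in every list, and Spi1 had 1 and 0 in non-cycling against 0 and 2 in cycling lists. Cdh5 had 4 and 2 against 3 and 3, Pecam1 0 and 1 against 2 and 2, and Pdgfrb 1 and 1 against 0 and 0. The ependymal marker Foxj1 had 2 and 0 against 2 and 2. The summed peaks were 8 and 4 in non-cycling and 4 and 9 in cycling lists for microglia and macrophage genes, and 10 and 8 against 10 and 12 for endothelial and mural genes. For the oligodendrocyte lineage they were 28 and 32 against 24 and 44, and at equal length 27 and 32 against 21 and 26. Lymphocyte genes had 0 and 0 against 0 and 1, fibroblast and meningeal genes 11 and 5 against 8 and 13, ependymal genes 17 and 16 against 15 and 25, and astrocyte genes 33 and 33 against 37 and 57. Neuronal genes had 27 and 25 against 37 and 54, and 25 and 25 against 31 and 34 at equal length. Over all genes tested the sums were 18000 and 16794 against 17535 and 23208. The sums of microglia, fibroblast and ependymal genes overlapped between fractions. Those of neuronal genes were higher in both cycling lists at either length, and those of astrocyte genes at full length but not at equal length (26 and 33 against 32 and 34). Those of oligodendrocyte genes overlapped at full length but were lower in both cycling lists at equal length. Granule neuron progenitor genes summed to 30 and 24 against 40 and 57, and at equal length to 27 and 24 against 37 and 30, with no overlap. The part of SOX2- cells in the cycling gate was not tested, and since the lists come from many cells, a smaller share of open cells and weaker opening in each cell cannot be told apart.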

How the data were processed

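ATAC-seq peak lists of 12 libraries were used, 4 of them SOX2+/MKI67+ or SOX2+/MKI67-. Per the labels, 35000 to 50000 sorted cells entered each reaction and reads were single-end, 50 bp. Bowtie2, MACS2 and mm10 are named in the submitters' processing notes; versions and settings are not given in the sources used here. For each peak the authors deposited a score, a fold ratio over background, the offset of the summit, and p and q on the -log10 scale. No read counts were used, so depth is unknown and list length stands in for it; a peak missing from a list may lie just under its threshold.

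Peaks were ranked by -log10 q, merged at 1 bp of overlap (Python 3.11.15, pandas 2.3.3), and assigned by midpoint to one of 21627 RefSeq protein-coding genes within 100 kb. The test of peaks per gene used limma 3.58.1 on log2(peaks + 1) in all 12 libraries with log10 total peaks as covariate, keeping genes listed in 2 or more libraries, adjusted by Benjamini-Hochberg, threshold 0.05. Sets of regions were compared over libraries by exact permutation. Interval and limma code was tested on simulated data. Genes named were the markers Mki67, Atoh1, Sox2 and Ptch1, up to 4 members of each list with the smallest p, up to 12 genes per direction, the 12 regions per direction with the best worse rank, and genes the results turn on; others were chosen after their values were seen. The comparison, its gene lists (339 of 340 genes matched) and its tests were chosen with earlier results of these data known. Some genes are not reported here. Promoter windows were matched for 244 list genes. Leaving out libraries, equal-length lists and other filters were the alternatives.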

Additional observations from a re-analysis of the deposited data

How the results depend on the processing

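At equal list length, cycling-only and non-cycling-only regions numbered 896 and 821. With the cut applied only to the group that lists the region they numbered 788 and 367. These are the counts given above for full-length regions that stayed exclusive. At a -log10 q of at least 5 the non-cycling-only regions numbered 269. Leaving out each MKI67 library gave 2553 to 6371 and 555 to 2214 regions, a rise that follows from needing fewer libraries to agree. The difference of log2 ratios between SOX2+ and SOX2- libraries ranged from -4.51 to -2.25 when 1 library was left out (exact p = 0.0571, the smallest at 3 against 4, or 0.0286), and it kept its direction under every alternative run. With all reference lists at the shortest length, the difference of percents passed for both sets (-20.9 and 1.28 percentage points, exact p = 0.0286). That of all merged regions passed as well (1.11 points, exact permutation p = 0.0286). The mean gene-end percent differed by -3.72 points, cycling minus non-cycling, at full length, with overlapping groups and only cycling replicate 2 below both non-cycling lists, and by 0.409 points at equal length.

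Counts of genes called by limma moved most. Genes called higher were 28 with all 12 lists at the shortest length, 396 in the 4 MKI67 libraries alone, 8 for genes listed in 4 or more libraries and 0 without genes of zero spread (488 at an unadjusted p under 0.05), and 17 to 53 when 1 library was left out. Genes called lower were 55 at equal length, 27 with all 12 lists at the shortest, 388 in the 4 libraries alone, 3 for genes listed in 4 or more libraries, 8 from the better-ranked 50% of each list and 0 without genes of zero spread (222 unadjusted), and 14 to 48 when 1 library was left out. Removing genes of zero spread takes away 27 of the 30 calls by construction; for the other settings the cause was not tested. With the replicate number as a block, 25 and 19 genes were called, and 19 and 8 with a block within each sort. Same-numbered MKI67 libraries hardly deviated together (correlation 0.04), so the numbers were not taken as pairs. The Sox2 log2 difference ranged from -0.68 to 0.20 when 1 library was left out, and that of Ptch1 was -0.20 from the better-ranked 50%; neither passed. Alternatives chosen after seeing the data were the removal of zero-spread genes, the block within each sort and the choice of regions without 1 MKI67 library. With 2 libraries a group and no read depth, a region missing from a list cannot be told from one just under its threshold.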

Other observations

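Chromosome 13 held 7.82% of the non-cycling-only regions, 3.05% of the cycling-only regions and 4.02% of all merged regions. Of the 34 non-cycling-only regions there, 27 lay in its first 70 Mb, as did 678 of the 1199 merged regions of the chromosome, and 4 of the 12 leading non-cycling-only regions were on this chromosome. No test was made, since the chromosome was picked after its values were seen.

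Regions listed in 1 MKI67 library alone numbered 1768 and 956 in the non-cycling and 1706 and 4532 in the cycling libraries. At least 3 of the 4 SOX2- libraries listed 0.735% and 0.314% of the non-cycling ones, and 11.5% and 7.5% of the cycling ones. Both cycling percents were the higher, also at equal length (1.92% and 1.58% against 18.8% and 11.5%). The Tgfb2 gene, a growth factor of the TGF-beta family, differed from the other list genes with a non-cycling-only region, since its region (chr1:186627489-186627875) was in 3 SOX2- and 3 SOX2+ libraries and none of the others was in more than 1 SOX2- library.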
